A study of Rattus norvegicus with 11 samples.

Results

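Gene expression in the medial prefrontal cortex (mPFC) of female rats killed in diestrus was compared with that of male rats, which do not cycle. The comparison used 8 of the 11 libraries of the series, 4 from diestrus females and 4 from males, each named by the replicate number (2 to 5) of its label. All 15607 genes of the DESeq2-normalized table were tested, and each was placed in 1 of 3 abundance strata by its mean normalized count over the 8 libraries. There were 3918 genes with a mean under 50, 5646 with a mean of 50 to 500 and 6043 with a mean over 500. The 3 proestrus libraries were not used.

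Both groups were Sprague-Dawley rats, 2 to 3 months old, given no agent and carrying no engineered allele in the labels, from which RNA was taken in tissue punches of the infralimbic, prelimbic and cingulate areas. Diestrus was staged from daily vaginal smears over several cycles, and only females with regular cycles were kept and killed early on the first day of diestrus. Males were killed on the same days as females. Rats were kept in pairs, with the sexes in separate rooms, and females were killed once both of a pair had reached the stage. Libraries of a group may therefore come from cage mates, which the labels do not identify. Every test below treats them as independent. Each punch holds many cell types, so that fewer cells of a type and less RNA per cell cannot be told apart in any value below.

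In the rat, ovarian estradiol and progesterone rise in proestrus and are low early in diestrus, and their nuclear receptors act as transcription factors. A comparison of diestrus females with males therefore sets the sexes side by side at a point of low ovarian hormone, while the main gonadal hormone of males is testosterone. Sex, cycle stage and housing room differ together between the groups and cannot be told apart in any difference below. Higher or lower in diestrus means relative to males and names no cause. The mPFC is known for its part in planning, working memory and the control of emotional responses. Genes are given here by Ensembl identifier, because the table pairs no symbol with them and 0 identifiers could be matched to the 47357 RefSeq genes used. The study's supplementary tables, which pair some identifiers with names, were not used for names. The markers of cortical cell types and the lists of hormone-related genes were therefore not checked here, and at most 2 genes a direction are named.

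The libraries held 15.9 to 24.6 M reads on genes. As a check for a library deposited more than once, reads were compared between libraries of a group, where chi-square values ran from 4.94 to 27.3 for each degree of freedom. In diestrus they were 5.29 for replicates 2 and 3 and 4.94 for replicates 4 and 5, against 13.7 to 25.6 for the other pairs. Whether these libraries came from cage mates was not tested. The 20 most abundant genes took 13.4% to 13.9% of reads in diestrus, against 12.01% to 12.17% in male replicates 2, 4 and 5 and 13.4% in male replicate 3. The share of normalized counts in each stratum did not differ between groups beyond the spread of the libraries. Genes over 500 took 93.5% ± 0.319 in diestrus and 93.2% ± 0.423 in males (SD, n = 4; two-sided exact permutation test with 70 arrangements, p = 0.171, adjusted p = 0.2 over 3 strata). Genes under 50 took 0.352% ± 0.0237 in diestrus and 0.386% ± 0.0405 in males (SD, n = 4; exact permutation test, p = 0.2, adjusted p = 0.2).

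In the limma fit without a covariate few genes differed, and all but 1 of them were lower in diestrus. In this fit of log2(normalized count + 1) over all genes, 18 of 15607 genes (0.115%) passed a false discovery rate (FDR) of 0.05. Of these, 1 (0.00641%) was higher in diestrus and 17 (0.109%) were lower. The 18 genes had absolute log2 fold changes from 0.61 to 5.45, with a median of 1.39, and in each of them the 4 diestrus values did not overlap the 4 male values. Such a lack of overlap was found in 600 genes (3.84%), 301 of them higher and 299 lower in diestrus. At an unadjusted p under 0.05 there were 1186 genes (7.6%), of which 460 (2.95%) were higher and 726 (4.65%) lower in diestrus.

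The number of calls changed when single libraries were left out. In limma fits that left out 1 library, 2 genes passed without diestrus replicate 3, 2 without diestrus replicate 4, 8 without male replicate 2, 2 without male replicate 3, 4 without male replicate 4 and 2 without male replicate 5, while 13 passed without diestrus replicate 2 and 12 without diestrus replicate 5. Only 2 of the 18 genes passed in all 8 of these fits, and the other 16 passed in at most 3 of them. With all 8 libraries these 16 had limma adjusted p-values of 0.0403 to 0.05, close to the threshold and many of them tied. A fit with fewer libraries also has less precision, so that a fall in calls does not by itself single out the library left out. The direction of all 18 was kept in each of the 8. The split of directions depended on the fit as well, since DESeq2 called 85 genes, 23 higher and 62 lower in diestrus. Covariates for the main axis of spread gave 387 higher and 665 lower, or 21 higher and 34 lower, in the fits described last. The count at an unadjusted p under 0.05 moved in both directions. It was 713 without diestrus replicate 2, 775 without diestrus replicate 3, 736 without male replicate 4 and 723 without male replicate 5, but 1904 without diestrus replicate 5 and 2470 without male replicate 3.

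**Figure D1:**
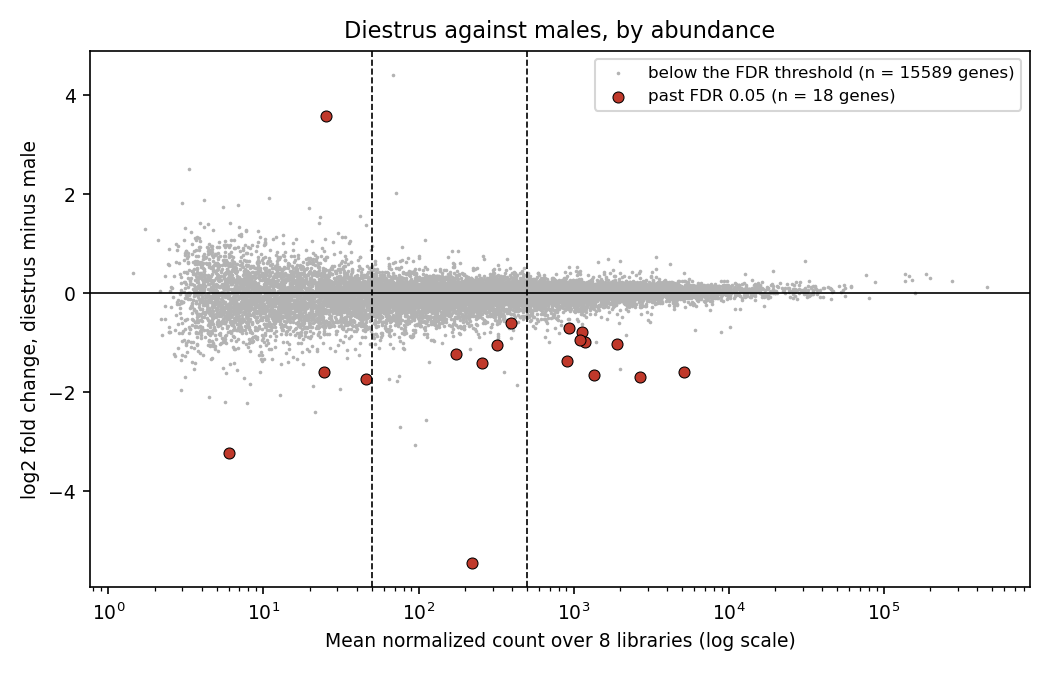
Each point is 1 gene, with its mean normalized count over the 8 libraries on a log x axis and its log2 fold change (diestrus minus male) on the y axis. Dashed lines mark the limits of the strata at 50 and 500, and red points are the 18 genes past the FDR, of which 17 lie below 0. The cloud narrows as abundance grows, and the red points over 500 lie between −0.70 and −1.69.

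The 2 genes that passed in all 8 fits were close to the floor of detection in one group. For ENSRNOG00000037911, with a mean of 25.2, the normalized counts were 49.0, 42.5, 38.6 and 59.4 in diestrus replicates 2 to 5, and 4.14, 2.00, 2.36 and 3.87 in male replicates 2 to 5. These male values stand for 2 to 5 reads per library, against 34 to 76 reads in diestrus. The group means of ENSRNOG00000037911 were 47.4 ± 9.07 and 3.09 ± 1.07 normalized counts (SD, n = 4), a 15.3-fold ratio of means, and its log2 fold change was 3.58 (SE 0.28, limma adjusted p = 0.00032).

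ENSRNOG00000033517 had the opposite pattern. Its normalized counts were 8.82, 10.9, 5.68 and 10.2 in diestrus replicates 2 to 5, and 337.8, 424.1, 611.1 and 358.0 in male replicates 2 to 5. Every male library was far above the highest diestrus library, and the diestrus values stand for 5 to 13 reads. The group means of ENSRNOG00000033517 were 8.89 ± 2.31 and 432.8 ± 124.5 normalized counts (SD, n = 4), with a log2 fold change of −5.45 (SE 0.24, limma adjusted p = 9.29e-07).

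The other 2 genes named had the next smallest limma p-value in each direction. Their differences were smaller than those of the first 2 but large for their strata. The 5th to 95th percentiles of the log2 fold change were −0.218 to 0.206 over 500, the stratum of ENSRNOG00000016957. They were −0.489 to 0.285 from 50 to 500, the stratum of ENSRNOG00000003800. ENSRNOG00000016957, with a mean of 1107, had normalized counts of 718, 765.2, 711.7 and 805.1 in diestrus replicates 2 to 5, and 1295, 1533, 1162 and 1869 in male replicates 2 to 5. It was lower in diestrus by a log2 fold change of −0.94 (SE 0.13, limma adjusted p = 0.0403), and its log2 SD was 0.083 in diestrus and 0.299 in males. In limma, ENSRNOG00000016957 missed the FDR without diestrus replicate 2 (adjusted p = 0.062), 3 (0.13) or 4 (0.15), and without male replicate 2 (0.0601), 3 (0.0617) or 5 (0.0917). Its log2 fold change stayed between −0.82 and −1.05 in all 8 fits that left out 1 library. ENSRNOG00000003800 had normalized counts of 201.8, 284.5, 227.4 and 216.5 in diestrus replicates 2 to 5 and of 164.8, 117.0, 112.3 and 121.9 in male replicates 2 to 5. Its groups did not overlap, but with a log2 fold change of 0.85 (SE 0.15) it missed the FDR (limma adjusted p = 0.101). It kept its direction under every alternative, with adjusted p-values from 0.000689 in DESeq2, where it passed, to 0.452 in limma without male replicate 5.

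**Figure D2:**
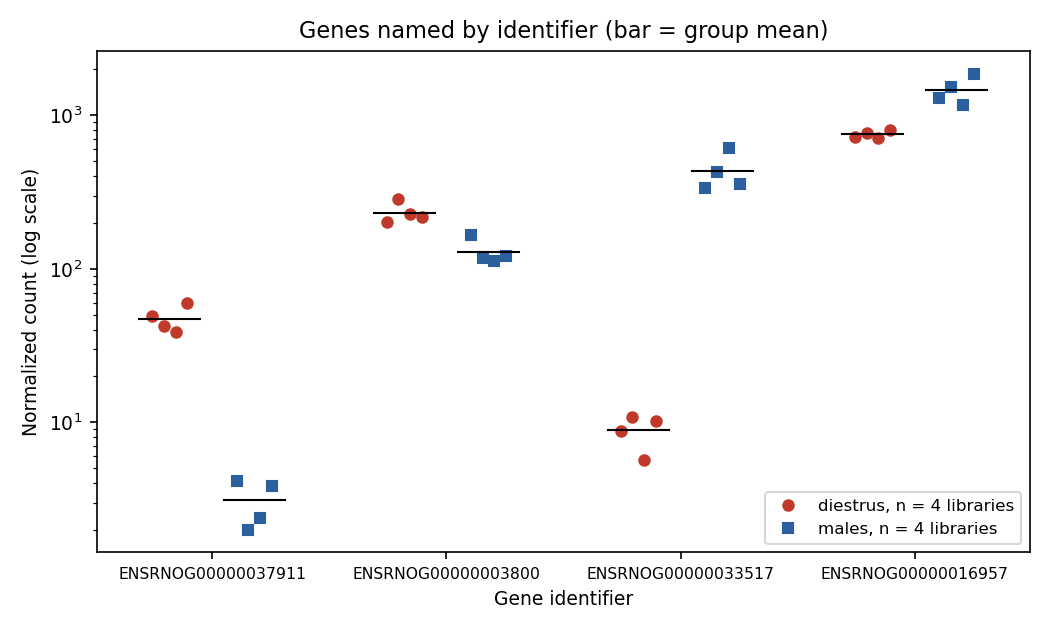
Normalized counts on a log y axis for the 4 genes named by identifier, with 1 red circle for each diestrus library, 1 blue square for each male library and a bar at the group mean (n = 4 a group). The groups of all 4 genes are apart, with ratios of means of 15.3 in ENSRNOG00000037911, 1.80 in ENSRNOG00000003800, 48.7 in ENSRNOG00000033517 and 1.95 in ENSRNOG00000016957, the higher group over the lower.

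Among the 3918 genes under 50, 4 passed the FDR (0.102%), 1 higher and 3 lower in diestrus, with absolute log2 fold changes of 1.59 or more. ENSRNOG00000037911 was the 1 higher. The lowest of the 4, with a mean of 5.99, had 0, 0, 1.14 and 0 normalized counts in diestrus replicates 2 to 5 and 23.2, 9.002, 5.91 and 8.71 in male replicates 2 to 5. At an unadjusted p under 0.05 there were 326 genes (8.32%), of which 117 were higher and 209 (64.1%) lower in diestrus. This lean did not hold throughout, with 124 higher and 125 lower without male replicate 4, 112 and 119 without male replicate 5, 165 and 151 with quantile normalization, and 146 and 114 with the first principal component of all genes as a covariate. It grew to 141 and 334 with the within-group axis as a covariate. Leaving out diestrus replicate 2 or diestrus replicate 5 left 2 calls in this stratum, and leaving out any of the other 6 libraries left 1.

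Large differences were more frequent under 50 than in the other strata and seldom passed. An absolute log2 fold change of at least 1 was found in 153 of these 3918 genes, 57 higher and 96 lower, but in 107 of them the groups overlapped and 149 did not pass. The 149 had a median residual SD of 0.78 on the log2 scale, against 0.37 in the 4 that passed. Passing itself favours a small SD, so that this contrast is built in. The largest of them had 2.94, 7.63, 4.55 and 10.2 normalized counts in diestrus replicates 2 to 5 and 0, 1, 0 and 0 in male replicates 2 to 5, with a limma adjusted p of 0.15. Over the table as a whole, 185 genes (1.19%) had a log2 fold change of that size.

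Among the 5646 genes from 50 to 500, 5 passed the FDR (0.0886%), all lower in diestrus, with absolute log2 fold changes of 0.61 to 5.45. At an unadjusted p under 0.05 there were 545 genes (9.65%), of which 173 were higher and 372 (68.3%) lower in diestrus. With quantile normalization it was 247 higher and 310 lower, and with the first principal component of all genes as a covariate it turned, to 373 higher and 289 lower. The smallest difference called was in a gene with 309.5, 286.7, 318.3 and 338.4 normalized counts in diestrus replicates 2 to 5 and 492.6, 530.1, 432.6 and 459.6 in male replicates 2 to 5. Another had 294.9, 212.6, 176.2 and 167.3 in diestrus and 426.4, 421.1, 403.1 and 457.7 in males, so that the diestrus libraries varied far more than the male ones, with log2 SDs of 0.37 and 0.076. Without diestrus replicate 3, diestrus replicate 4, male replicate 3, male replicate 4 or male replicate 5, ENSRNOG00000033517 was the sole call in this stratum, and 3 genes passed without male replicate 2, 4 without diestrus replicate 5 and 6 without diestrus replicate 2.

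In this middle stratum, 26 genes had an absolute log2 fold change of at least 1, 3 higher and 23 lower, and 22 of them did not pass. The largest of the 22, with a log2 fold change of 4.40, had 277.2, 1.09, 268.3 and 1.56 normalized counts in diestrus replicates 2 to 5 and 0, 1, 0 and 0 in male replicates 2 to 5. A pair of diestrus libraries therefore held nearly all of its reads, and the log2 SD within diestrus was 3.98 (limma adjusted p = 0.564). The next had 7.84, 7.63, 9.10 and 125.8 normalized counts in diestrus and 155.6, 170.0, 188.0 and 92.9 in males, where diestrus replicate 5 alone lay within the range of the males.

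Among the 6043 genes over 500, 9 passed the FDR (0.149%), all lower in diestrus, with absolute log2 fold changes of 0.70 to 1.69. The calls of this stratum were not of 1 direction in every fit. They were 7 higher and 20 lower in DESeq2, and 287 higher and 260 lower in limma with the within-group axis as a covariate. At an unadjusted p under 0.05 there were 315 genes (5.21%), of which 170 were higher and 145 (46.0%) lower in diestrus. This split had no stable direction. It was 138 higher and 181 lower with quantile normalization, 151 and 153 with TMM scaling, 151 and 159 in edgeR and 231 and 244 with library weights. Without 1 library it was 75 and 86 (diestrus replicate 2), 97 and 97 (diestrus replicate 3), 77 and 92 (male replicate 4) or 95 and 96 (male replicate 5). It leaned to higher with 125 and 86 without male replicate 2, 398 and 275 without diestrus replicate 5 and 547 and 429 without male replicate 3, and with 1329 and 649 when the within-group axis was a covariate. An absolute log2 fold change of 1 was reached by 6 genes over 500, all lower in diestrus without overlap of the groups, and 5 passed. Without diestrus replicate 3, diestrus replicate 4, male replicate 3 or male replicate 5, 0 genes over 500 passed in limma, with 191 to 976 at an unadjusted p under 0.05. There were 2 calls without male replicate 4, 4 without male replicate 2, 5 without diestrus replicate 2 and 6 without diestrus replicate 5.

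A set of 3 of the 9 genes over 500, chosen after their values were seen, had the same order at the ends of both groups. One had 1627, 1331, 1173 and 884.8 normalized counts in diestrus replicates 2 to 5 and 2444, 5509, 3830 and 4725 in male replicates 2 to 5. Another had 861.1, 618.1, 683.3 and 445.5 in diestrus and 1212, 2687, 1927 and 2451 in males. The most abundant of the 18 genes, with a mean of 5161, had 3253, 2556, 2534 and 1726 in diestrus and 4584, 11210, 7308 and 8109 in males. In all 3, diestrus replicate 5 was the lowest library, male replicate 2 was the lowest male and male replicate 3 was the highest.

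The centre of each stratum moved little. The median log2 fold change was −0.06 under 50, −0.01 from 50 to 500 and 0.04 over 500, and 56.2%, 52.5% and 38.0% of the genes were lower in diestrus. These medians depended on the scaling, since with quantile normalization they were 0.0079, 0.028 and 0.015, all above 0, and with the first principal component as a covariate they were 0.015, 0.020 and −0.0044. Without 1 library they kept their sign but ranged from −0.087 to −0.034 under 50 (lowest without male replicate 3, nearest 0 without male replicate 4), from −0.029 to −0.0023 from 50 to 500 (without male replicate 3 and diestrus replicate 2) and from 0.024 to 0.051 over 500 (without diestrus replicate 3 and male replicate 3). The size of a typical difference fell with abundance. The median absolute log2 fold change was 0.28 under 50, 0.13 from 50 to 500 and 0.084 over 500, against median standard errors of 0.33, 0.15 and 0.095. At these errors the log2 fold change that a typical gene would have needed to pass was 2.05 under 50, 0.92 from 50 to 500 and 0.59 over 500.

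The spread within the groups was next set beside these differences. The median SD of a gene among diestrus libraries was 0.427 under 50, 0.201 from 50 to 500 and 0.131 over 500 on the log2 scale, and among male libraries it was 0.425, 0.192 and 0.130. The ratio of male to diestrus SD had a median of 0.994, 0.979 and 0.982, and the male SD was the larger in 49.7%, 48.4% and 48.6% of genes. Counting of reads alone gave a median SD of 0.36 under 50, 0.105 from 50 to 500 and 0.0397 over 500. Its median share of a gene's within-group variance was 60.2% under 50, 27.8% from 50 to 500 and 7.89% over 500, so that in abundant genes nearly all of the spread lay between the libraries themselves.

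**Figure D3:**
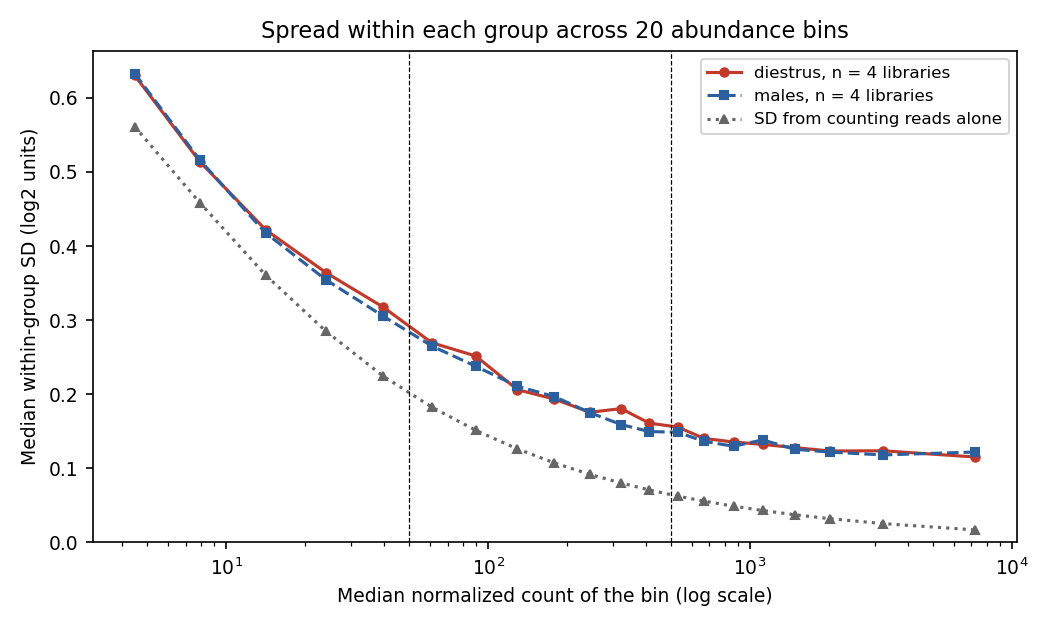
Median within-group SD in log2 units (y axis) against the median normalized count on a log x axis, in 20 bins of 780 or 781 genes, for diestrus (circles, n = 4 libraries), males (squares, n = 4 libraries) and the SD from counting reads alone (triangles). The curves of both groups lie on each other from 0.63 in the first bin to 0.115 in diestrus and 0.122 in males in the last, where counting gives 0.017.

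Each library was then described by its root-mean-square log2 distance to the other 3 libraries of its group. Under 50 the mean distance was 0.802 ± 0.0166 in diestrus and 0.800 ± 0.0305 in males (SD, n = 4; two-sided exact permutation test with 70 arrangements, p = 0.914). From 50 to 500 it was 0.386 ± 0.0138 and 0.374 ± 0.0467 (SD, n = 4; exact permutation test, p = 0.657), and over 500 it was 0.232 ± 0.0153 and 0.222 ± 0.0403 (SD, n = 4; exact permutation test, p = 0.714). All 3 adjusted p-values were 0.914. The male libraries held both extremes over 500, with male replicate 3 at 0.279 and male replicate 2 at 0.188, while the diestrus libraries lay between 0.215 and 0.248. From 50 to 500 and over 500, the ratio of male to diestrus SD moved most without 1 of these 2 male libraries. Other libraries moved it too, over 500 to 0.887 without diestrus replicate 4 and to 1.087 without male replicate 5. Without male replicate 3 it was 0.805 from 50 to 500 and 0.711 over 500, and without male replicate 2 it was 1.121 and 1.171. As both are the extremes of the distance itself, these ratios are a description and no test was read from them.

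**Figure D4:**
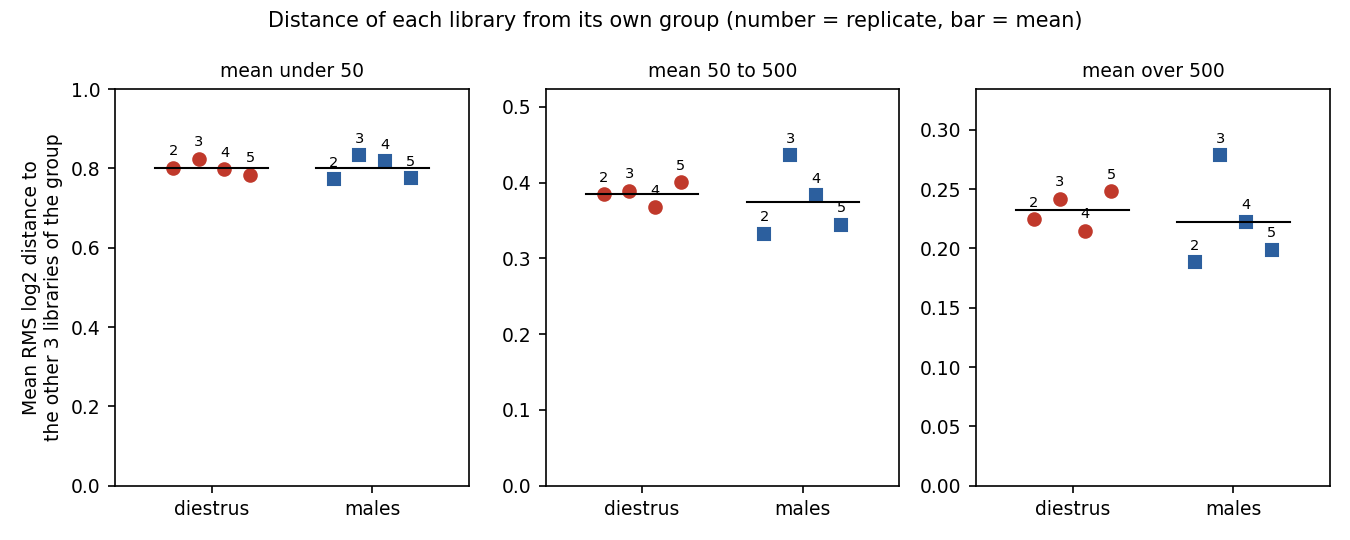
Mean root-mean-square log2 distance of each library to the other 3 of its group (y axes start at 0 and differ between panels), for genes under 50, from 50 to 500 and over 500. Numbers are replicates and bars are group means. Male replicate 3 is the highest point of all 3 panels, and male replicate 2 is the lowest.

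Much of this spread lay along 1 axis that both groups shared. After the mean of each group was taken out, the first axis of the remaining variance held 27.5% of it under 50, 52.6% from 50 to 500 and 72.4% over 500, where each of the 6 dimensions would hold 16.7% if they were equal. Over 500, the libraries scored −0.86 (diestrus replicate 2), −1.17 (diestrus replicate 3), 0.77 (diestrus replicate 4), 1.27 (diestrus replicate 5), −0.068 (male replicate 2), −1.52 (male replicate 3), 1.05 (male replicate 4) and 0.53 (male replicate 5). Diestrus replicates 2 and 3 and male replicate 3 lay at one end, diestrus replicates 4 and 5 and male replicates 4 and 5 at the other, and male replicate 2 near 0. The same 3 libraries lay at the low end in the other strata.

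**Figure D5:**
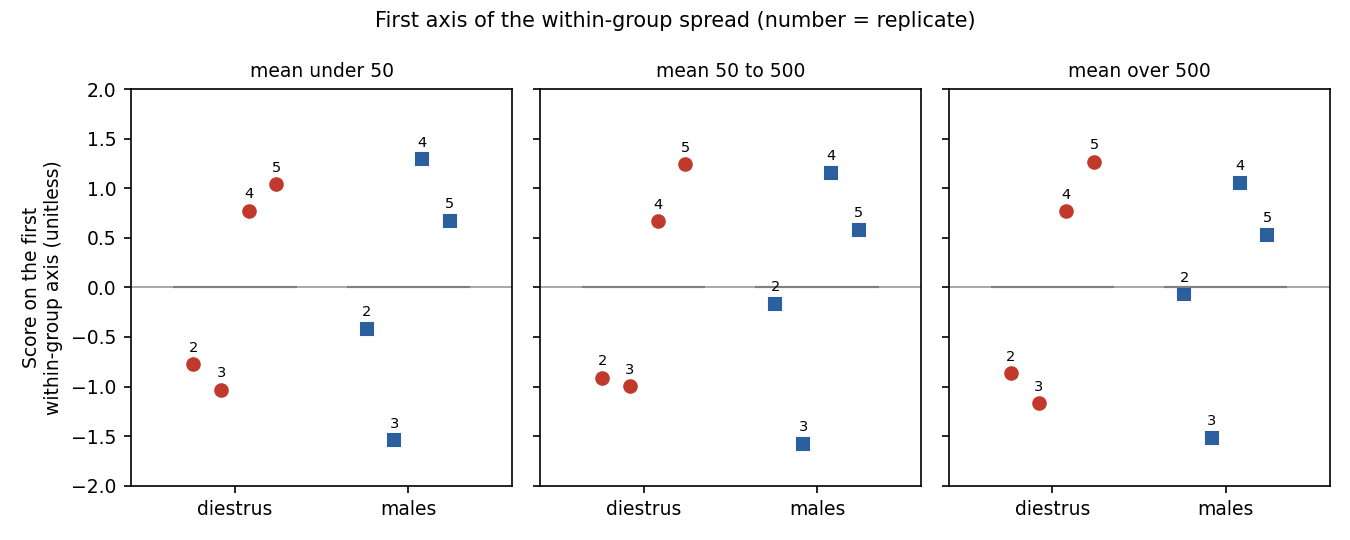
Scores of the 8 libraries on the first axis of the within-group variance (y axis, unitless), computed separately for genes under 50, from 50 to 500 and over 500, with the replicate number beside each point. Each group has a mean of 0 by construction. Diestrus replicates 2 and 3 and male replicate 3 are the lowest of their groups in every panel.

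The deviations of single genes from their group means followed the same arrangement. Across the genes over 500, which are not independent replicates, the deviations of male replicate 3 correlated with those of diestrus replicate 3 (r = 0.782) and diestrus replicate 2 (r = 0.642), and ran against those of diestrus replicate 5 (r = −0.80) and diestrus replicate 4 (r = −0.632). More than 50% of the within-group variance lay on the axis of the abundant genes in 4017 genes over 500 (66.5%), 2707 from 50 to 500 (47.9%) and 773 under 50 (19.7%). Of the 18 genes past the FDR, 3 were among these. The axis held 12.7% of the within-group variance of ENSRNOG00000037911, 0.0678% of that of ENSRNOG00000033517, 1.12% of that of ENSRNOG00000016957 and 5.62% of that of ENSRNOG00000003800.

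The 3 libraries at the low end of the axis also had the largest share of counts in abundant genes. Genes over 500 took 93.8%, 93.9% and 93.7% of the counts in diestrus replicate 2, diestrus replicate 3 and male replicate 3, against 92.8% to 93.4% in the other 5 libraries. Genes under 50 took 0.331% to 0.343% in these 3 libraries and 0.358% to 0.427% in the other 5. Their reads on genes, 18.9 to 20.7 M, lay within the range of the other 5 libraries, 15.9 to 24.6 M. What part these shares have in the axis was not tested.

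The first principal component of the 8 libraries held 26.8% of the variance under 50, 50.01% from 50 to 500 and 67.0% over 500, and its scores did not differ between groups beyond their spread (exact permutation tests, two-sided, p = 0.143, 0.171 and 0.229, adjusted p = 0.206, 0.206 and 0.229). The second component held 15.3%, 15.1% and 11.4%. Over 500 its scores were 2.36, 1.76, 3.98 and 7.24 in diestrus replicates 2 to 5 and −2.89, −6.67, −2.31 and −3.47 in male replicates 2 to 5, without overlap. The exact permutation p of the second component was 0.0571 under 50 and 0.0286 in the other strata, the smallest that 70 splits allow, and over the 6 scores tested the adjusted p was 0.114, 0.0857 and 0.0857.

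The number of calls changed by more with this axis in the fit than under any other alternative tried. With the scores of the within-group axis over all genes as a covariate, the median residual SD over 500 was 0.0752 in place of 0.136, that from 50 to 500 was 0.147 in place of 0.208, and that under 50 was 0.415 in place of 0.459. In limma, 1052 genes then passed the FDR, 387 higher and 665 lower in diestrus, with 61 under 50, 444 from 50 to 500 and 547 over 500, and all of the 18 genes were among them. The calls were 21 higher and 40 lower under 50, 79 and 365 from 50 to 500, and 287 and 260 over 500. The axis was taken from the within-group residuals of these same genes, so that the smaller residual SDs follow from its construction. The p-values of this fit are therefore too small, and the rise in calls is no test of the axis. This covariate has a mean of 0 in each group, so that it removes spread within the groups and leaves in the difference whatever the groups differ by along the axis. On the first principal component of all genes, which held 35.8% of their variance, diestrus averaged −13.5 and males 13.5, so that the diestrus mean lay on the side of the low end of the axis. Of the 1052 genes, 964 differed between diestrus and males with the same sign as between the low and the high end of the within-group axis, as did 71.9% of all genes.

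With that first principal component as the covariate in place of the within-group axis, which also takes out the difference along it, 55 genes passed in limma. They were 21 higher and 34 lower in diestrus, with 3 under 50, 17 from 50 to 500 and 35 over 500. Among them were 17 of the 18 genes, and 40 of the 55 were also among the 1052. Of the genes over 500, 18 were then higher and 17 lower in diestrus, whereas all 9 of the limma calls without a covariate were lower. Both covariates were chosen after the data were seen and were computed from the same values that were tested.

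In the abundant stratum the calls lay mostly among the genes with a wide spread. When the genes over 500 were split into 4 equal sets by their residual SD, the set with the widest spread (median SD 0.229) held 7 of the 9 genes past the FDR and 7.15% of it had an unadjusted p under 0.05, against 0 genes and 3.44% in the set with the narrowest spread (median SD 0.0718). From 50 to 500 the widest set held 3 of the 5 and 16.5% had an unadjusted p under 0.05, against 1 and 6.73% in the narrowest. Under 50 the order was the opposite, with 6.63% in the widest set and 9.80% in the narrowest. The median absolute log2 fold change rose with the spread in all 3 strata, from 0.0483 to 0.151 over 500, from 0.0846 to 0.271 from 50 to 500 and from 0.198 to 0.415 under 50. With 4 libraries a group, a wider spread gives larger differences also without a true one. The spread also falls with abundance inside a stratum, so that these sets are a description.

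With 4 libraries a group, the ratio of 2 SDs scatters widely also where the true spread is equal, so that the ratios of single genes are given without a reading. The ratio of male to diestrus SD ran from 0.516 to 1.96 between the 10th and the 90th percentile over 500, and from 0.421 to 2.37 under 50. The gene over 500 with the lowest ratio, 0.0372, had 961, 1084, 1227 and 1215 normalized counts in diestrus replicates 2 to 5 and 1238, 1225, 1229 and 1233 in male replicates 2 to 5. The gene with the highest, 15.1, had 1511, 1536, 1512 and 1523 in diestrus and 1628, 1571, 1506 and 1251 in males. These were picked for their ratio, so that the values are a description.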

How the data were processed

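RNA from mPFC punches was sequenced after poly(A) selection, in unstranded libraries with spike-in RNA. Per the labels and the methods, the authors trimmed reads with Trimmomatic 0.32, aligned them with TopHat2 2.0.11 and Bowtie2 2.1.0 to the Rnor_5.0 rat assembly, counted uniquely mapping reads per gene with HTSeq 0.6.1p1, discarded genes under a read minimum and left out 1 proestrus library. The deposited values are a signal, read counts divided by a DESeq2 size factor per library. In every library 100% of values were whole multiples of 1 step (tolerance 0.01), which gave the reads for edgeR 4.0.16 and DESeq2 1.42.0, run as alternatives. The deposited edgeR table was not used, since its scaling changed from row to row.

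Groups were compared with limma 3.58.1 (R 4.3.3), the prior variance following abundance, on log2(value + 1) of 8 libraries, two-sided, with Benjamini-Hochberg adjustment over 15607 genes at 0.05. Fold changes on this scale understate low genes. Values per library were compared by exact permutation. Scripts were tested on simulated data. The strata, lists and tests were chosen with earlier results of these data known. Genes past the FDR were to be named, then the extremes of each stratum, with at most 2 identifiers a direction for genes without a symbol. Unstranded counts of overlapping or near-identical genes are uncertain.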

Additional observations from a re-analysis of the deposited data

Results flagged for a closer look

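In groups of 4 libraries, a library was singled out where its gap to the nearest other, divided by the range of the group, was above 0.829. Of 48 sets of 4 values examined 2 were singled out, where chance gives about 1 in 20. In male replicate 3, 13.4% of the reads fell on the top 20 genes, against 12.01% to 12.17% in the other 3 males. The median gene under 50 had 18 reads in diestrus replicate 5, the largest library, against 12 to 13 in the other 3 diestrus libraries.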

How the results depend on the processing

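Against 18 calls in all, limma gave 1 with genes of a mean of at least 50, 0 with genes over 500 alone (315 at an unadjusted p under 0.05) and 2 with 1 prior variance for all genes. edgeR gave 4 calls, DESeq2 85 (23 higher, 62 lower in diestrus) and the genes called by both 4. By stratum, in the order under 50, 50 to 500 and over 500, the calls were 4, 5 and 9. They were 1, 1 and 0 with 1 prior variance, 1, 1 and 2 in edgeR and in both tools, and 16, 42 and 27 in DESeq2. With a minimum mean of 10, 3 genes from 50 to 500 passed, and with one of 50, 1 from 50 to 500 and 0 over 500. Quantile normalization gave 2 calls under 50 and 2 from 50 to 500. The cause of these changes was not tested. Without one library the calls ranged from 2 to 13 in all, from 1 to 2 under 50, from 1 to 6 from 50 to 500 and from 0 to 6 over 500.

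Of the alternatives chosen after the data were seen, the within-group axis as a covariate gave 1052 calls (61, 444 and 547 by stratum) and the first principal component 55 (17 from 50 to 500 and 35 over 500). The within-group axis lowers the residual SD by construction. Without the 3 libraries at the low end of the axis there were 31 calls, 10 of them among the 18, with 12 from 50 to 500 and 15 over 500.

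Both groups carry the replicate numbers 2 to 5. With a replicate block limma gave 182 calls (63 higher, 119 lower), with 13, 75 and 94 by stratum, and all 18 were among them. Over 500 the calls with the block were 40 higher and 54 lower. At an unadjusted p under 0.05 the block gave 130 higher and 294 lower under 50, 332 higher and 738 lower from 50 to 500, and 869 higher and 483 lower over 500. The labels do not say that a number marks a shared litter or day. Deviations of libraries with the same number correlated by 0.049, 0.312, 0.166 and 0.21 over all genes, and those of libraries with different numbers by −0.397 to 0.328. Over 500 the values for the same number were −0.0429, 0.782, 0.631 and 0.468. As not every pair of the same number was over 0.1, the main fit did not pair the samples. Whether the numbers mark pairs cannot be told from these values.

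The ratio of male to diestrus SD, 0.994 under 50 and 0.979 from 50 to 500, was 1.004 under 50 with a pseudocount of 5 and 1.016 from 50 to 500 with quantile normalization. Without one library it ranged from 0.938 to 1.046 under 50, 0.805 to 1.121 from 50 to 500 and 0.711 to 1.171 over 500. ENSRNOG00000016957 missed the FDR in limma with genes of a mean of at least 50 (adjusted p = 0.0626), over 500 alone (0.0595) and with 1 prior variance (0.199). It also missed it in limma without the 3 libraries at the low end of the axis (adjusted p = 0.0555). ENSRNOG00000003800 missed the FDR in limma without a covariate but passed in DESeq2 (adjusted p = 0.000689), and in limma with the replicate block (0.0273) and with the within-group axis as a covariate (0.00453). ENSRNOG00000037911 and ENSRNOG00000033517 passed under every alternative that tested them. With 4 libraries a group, a typical gene under 50 could pass only with a log2 fold change of about 2.05.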
